A study of Mus musculus with 6 samples.

Results

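Axon guidance ligands and receptors were followed in the maxillary prominence, the facial swelling that forms the upper jaw and palatal shelves, when the transcription factor Dlx2 was overexpressed in the neural crest of mouse embryos. The set was chosen by gene name alone: protein-coding genes whose symbols belong to the semaphorin, plexin, neuropilin, ephrin, Eph, Slit, Robo, netrin and Unc5 families, together with Dcc, Neo1, Rgma and Rgmb. It holds 71 of the 53801 genes counted, of which 21967 are protein-coding, and divides into 36 ligands and 35 receptors. The ligands are 20 semaphorins, 8 ephrins, 3 Slits, 3 netrins and 2 repulsive guidance molecules, and the receptors are 11 plexins and neuropilins, 14 Eph receptors, 4 Robo receptors, 4 Unc5 receptors, Dcc and Neo1. Ntn3 was not analysed here.

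Guidance ligands are secreted or membrane-bound proteins that steer growing axons and migrating cells by attraction or repulsion, read out by receptors on the moving cell. Semaphorins signal through plexins, with neuropilins as co-receptors for most secreted semaphorins. Ephrins signal through Eph receptor tyrosine kinases on neighbouring cells and can signal back into the cell that carries them. Slits signal through Robo receptors, and netrins through Dcc and Neo1 (attraction) or Unc5 receptors (repulsion). In the embryonic face the same families act on the trigeminal sensory axons that grow into the maxillary prominence, on blood vessels, and on the migration and sorting of neural crest cells.

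RNA of E12.5 maxillary prominences, dissected intact, was sequenced in 3 wild-type samples (WT) and in 3 samples of the genotype Wnt1cre; Rosa26Dlx2/- (here Dlx2OE). The labels give the strain of all 6 samples as C57BL/6, the knock-in was made in C57BL/6J and the WT mice were C57BL/6J, while the background of the Wnt1-Cre line is not given in the sources used here. Dlx2OE embryos carry a Flag-tagged Dlx2 cassette behind a CAG promoter and a stop cassette at the Rosa26 locus, and Wnt1-Cre removes the stop in neural crest cells and their descendants, not in the epithelium, endothelium, blood or muscle of the same dissection. The labels do not say whether WT embryos carried Cre or the unrecombined cassette, so that effects of the transgenes and of Dlx2 cannot be told apart. The study's methods describe the 3 RNA samples of each genotype as independent, and give 6 littermates as their source where the labels give 7. Whether a sample is 1 embryo is not stated, so p-values measure the spread between these samples.

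Read pairs on genes numbered 30332754 to 31308813 in WT and 26155500 to 30570784 in Dlx2OE. Levels are given as read counts relative to library size (CPM, counts per 10⁶), with library size scaled by the TMM method, in which the 3 counts taken as the floor of detection equal 0.0955 to 0.111 CPM, a limit that covers counting error only. Values of a group are always listed in the order of replicates 1 to 3. Dlx2OE sample 3 stood apart, with 14.7% of its read pairs on no annotated gene against 5.03 to 7.81% in the other samples. By correlation over genes, Dlx2OE sample 1 was the least like its group. It correlated at r = 0.974 with Dlx2OE sample 2 and 0.964 with Dlx2OE sample 3, which correlated at 0.987 with each other. Dlx2 itself was at 42.9, 35.0 and 45.2 CPM in WT and 119, 131 and 123 CPM in Dlx2OE, a 3.03-fold rise (adjusted p = 0.00241). The mesenchyme markers that define the tissue were high in every sample, Prrx1 at 476 to 1009 CPM. The summed level of 12 mesenchyme markers was 4462 to 4902 CPM in WT and 5220 to 5370 CPM in Dlx2OE, and 3 of the 12 rose. Neuron markers varied widely. Their summed level was 229, 501 and 329 CPM in WT samples 1 to 3 and 344, 750 and 1434 CPM in Dlx2OE samples 1 to 3. All 12 had a log2 fold change above 0 (median 1.37). Of the 12, edgeR passed 0, against 4 at an unadjusted p under 0.05 and 2 with DESeq2. In edgeR, 29.5% of all genes tested had an unadjusted p under 0.05, and DESeq2 passed 2630 of its 17498 genes. Markers of erythroid cells (1565 to 2166 CPM against 2609 to 3265 in WT) and of macrophages (40.1 to 53.4 CPM against 67.0 to 75.5) were lower in every Dlx2OE sample, with 2 of 6 and 2 of 8 passing the test. The summed levels of epithelial, endothelial, muscle, glial, cartilage and neural tube markers overlapped between the groups. Dlx2OE sample 1 was the highest of all samples in summed epithelial markers, at 1764 CPM against 582 and 571 CPM in Dlx2OE samples 2 and 3. It was also the highest in summed neural tube markers, at 93.4 CPM against 38.2 and 41.9 CPM. Single markers among these lists passed. The simple-epithelium keratins Krt8 and Krt18 fell 4.32-fold and 3.60-fold (adjusted p = 0.00939 and 0.0233), the endothelial marker Emcn fell 1.97-fold (adjusted p = 0.0464), and Emx2, of the neural tube list, rose 3.05-fold (adjusted p = 0.0218). All 8 muscle and all 4 tested cartilage markers had log2 fold changes below 0, with 2 and 3 at an unadjusted p under 0.05, and of these edgeR passed 0 and DESeq2 1 and 0. The part of these cells in the levels of the guidance genes was not tested. Of all defining markers only Rax, a retina gene, was at 0 in some libraries.

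In the WT prominence, guidance genes ranged from barely detected to strongly expressed. Between genes, levels were compared only as CPM per kilobase of exon. The highest were the plexin Plxnb2, a receptor of class 4 semaphorins, at 48.7 ± 5.22, the receptor Ephb4, which binds ephrin-B2 on vessels, at 47.3 ± 5.00, and the receptor Epha3 at 47.1 ± 11.1 CPM per kb (SD, n = 3). Efnb1, the X-linked ephrin whose loss causes craniofrontonasal syndrome in people, led the ephrins at 34.7 ± 1.81 CPM per kb, Neo1, a receptor of netrins and of repulsive guidance molecules, led the netrin group at 25.4 ± 3.49 CPM per kb, and the secreted semaphorin Sema3f led the semaphorins at 22.0 ± 3.41 CPM per kb. Robo1 was the highest of the Slit and Robo genes, at 11.3 ± 2.03 CPM per kb, and Rgma the higher of the repulsive guidance molecules, at 10.1 ± 0.899 CPM per kb. The order is a graded one: of the 70 neighbouring pairs in it, 65 overlapped in their 3 WT samples, including Plxnb2 with Ephb4 and Ephb4 with Epha3. At the low end, the read pairs of Ntn5 numbered 1, 1 and 0 in WT against 20, 4 and 19 in Dlx2OE, so that it was too low to be tested and 70 members entered the test.

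**Figure D1:**
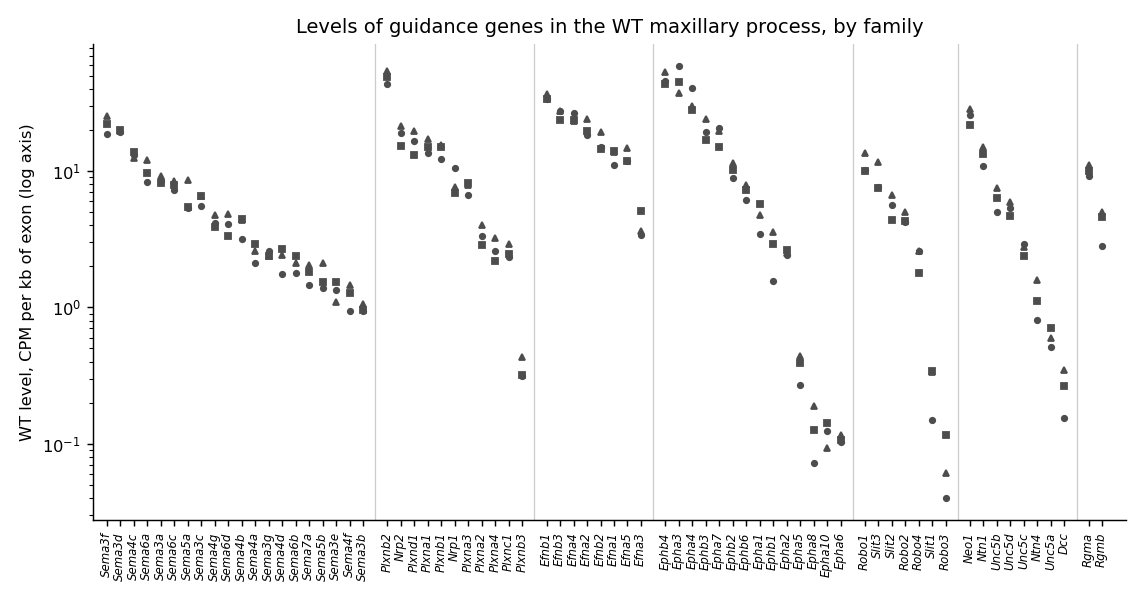
WT levels of the 70 tested guidance genes by family, in TMM-scaled CPM per kb of exon on a log axis, with a circle, a square and a triangle for WT samples 1, 2 and 3. Plxnb2, Ephb4 and Epha3 stand highest, between 47.1 and 48.7 CPM per kb on average.

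Of the 70 members tested, 10 rose and 4 fell in Dlx2OE at an adjusted p under 0.05, the quasi-likelihood test of edgeR with Benjamini-Hochberg adjustment over all 17514 genes kept. Among all genes tested, 2.99% rose and 3.46% fell, 6.45% in either direction, against 14.3% and 5.71% of the members. An unadjusted p under 0.05 in edgeR, counted below for some families, was reached by 29.5% of all genes and 42.9% of the members. DESeq2, also counted below, passed more genes than edgeR, 2630 of 17498 in all and 24 of 69 members. The rising genes were the plexins Plxna2, Plxna3 and Plxna4, the receptors Robo1, Robo2 and Epha8, the semaphorins Sema4f, Sema4g and Sema5a, and the ephrin Efna5. The falling genes were the secreted semaphorins Sema3c and Sema3d and the receptors Epha3 and Unc5d. With the added requirement of a fold past 2, which the study also set, 4 were called up (Epha8, Plxna4, Sema5a, Sema4f) and 2 called down (Epha3, Unc5d), where the background shares were 1.5% and 1.62%, or 3.12% in either direction. In bulk tissue, a change in the number of cells of a type and a change in RNA per cell cannot be told apart.

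Across all 70 members the median log2 fold change was 0.17, beside 0.003 over all genes tested, and 46 were above 0, a share of 65.7% against 50.3% of all genes. Values of the 3 Dlx2OE samples did not overlap those of the 3 WT samples in 26 members, 37.1% of them, close to the 34.1% of all genes. In 16 of the 26 the Dlx2OE samples were above (background 16.7%) and in 10 below (background 17.3%). By role, there were 4 rising and 2 falling of 35 ligands and 6 rising and 2 falling of 35 receptors. Guidance genes are long. Their median exon length was 6929 bp against 3994 bp over all genes tested, and 39 of the 70 lay in the 4374 longest genes, those of 6356 bp and over. In that class the median log2 fold change of all genes was also 0.17, 6.38% of genes rose and 1.14% fell, while in the 4379 shortest genes (2353 bp and under) it was -0.24. A correction for exon length and GC content brought the median of the members to 0.01, with 37 of the 70 above 0, and left 5 rising and 6 falling, where 1.84% and 2.49% of all genes did so. Plxna2, Plxna3, Robo1, Robo2 and Sema4g no longer passed with it, at smaller log2 fold changes (Sema4g at 0.36), nor did Sema3c, whose log2 fold change of -0.57 was no smaller than without it. Epha7, Ntn1 and Slit2 passed as falling, and the calls shared by both fits were Epha8, Plxna4, Sema5a, Sema4f, Efna5, Epha3, Sema3d and Unc5d.

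**Figure D2:**
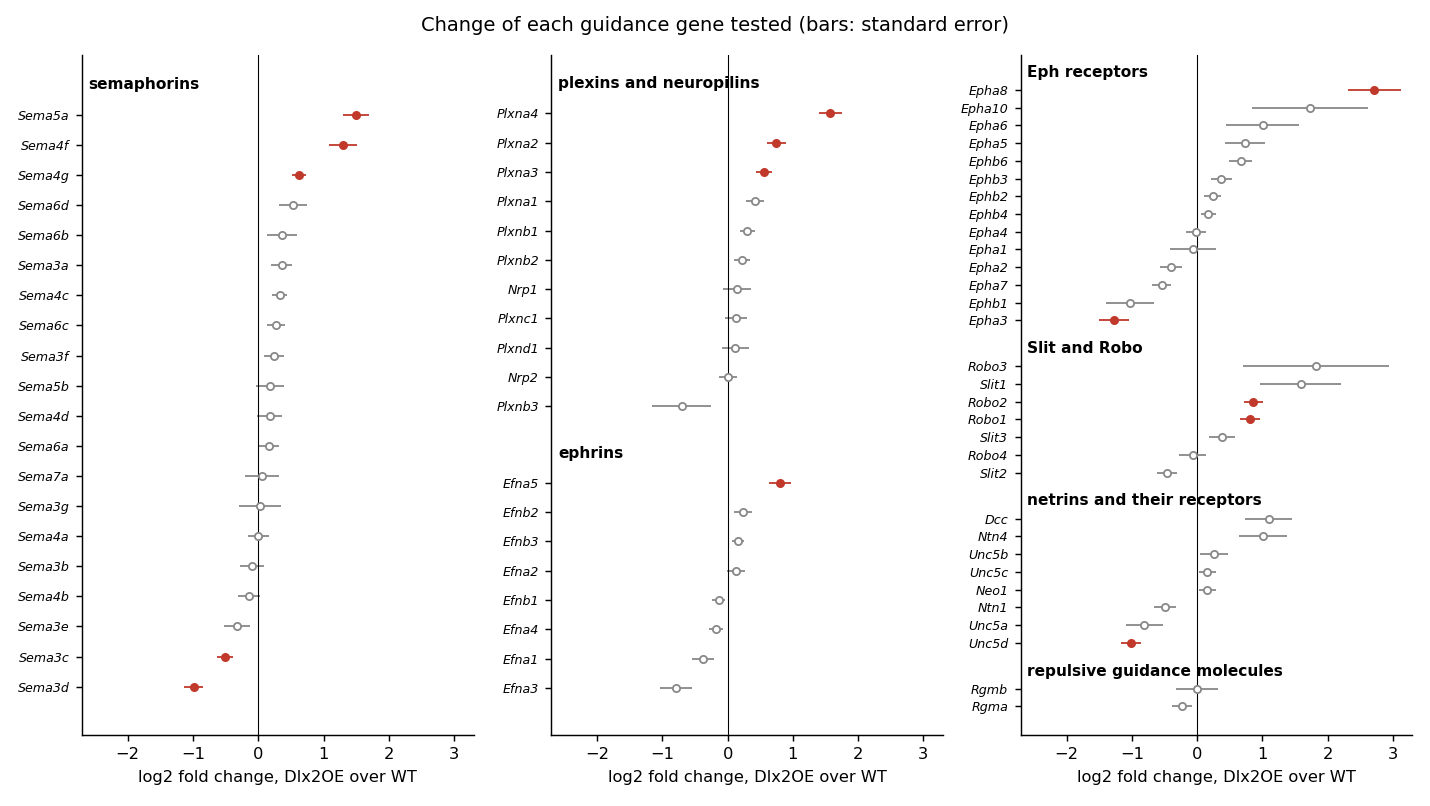
Log2 fold change (Dlx2OE against WT) of the 70 tested members by family, with bars of 1 standard error and filled colours for genes with an adjusted p under 0.05. The 4 plexin-A genes lie to the right of 0, from 0.42 to 1.58, and the widest error bar belongs to Robo3.

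**Figure D3:**
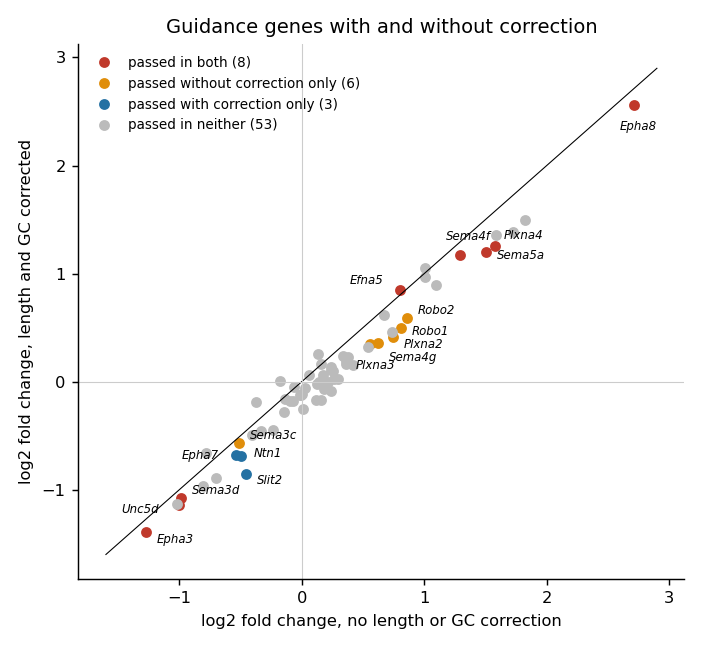
Log2 fold change of each of the 70 members without (horizontal axis) and with (vertical axis) the correction for exon length and GC content, with the diagonal marking equal values. With the correction the median moves from 0.17 to 0.01, and 8 genes passed in both fits, 6 only without and 3 only with the correction.

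Sequence upstream of the start sites was read for the members that passed, because the overexpressed factor is a homeodomain protein. RefSeq windows of 250 bases before each annotated start (GRCm38.p6) were matched by symbol for 60 members with 78 windows, among them 14 windows of 12 members that passed, and Plxna4 and Unc5d have no entry. The homeodomain motif TAATTA, searched on both strands (it is its own reverse complement), stood in 4.84% of all 32851 windows, in 3.85% of the member windows and in 0 of the 14. CTTTGA, the core of sites for Lef and Tcf factors, on either strand, stood in 13.8%, in 5.13% and in 0 of 14. After these were seen, the shorter core TAAT was searched on both strands, which also lies inside TAATTA. It stood in 54.9% of all windows, in 35.9% of the member windows and in 6 of the 14, belonging to Plxna2, Robo1, Robo2, Sema3c and Sema3d. These counts are descriptions of letters, not of binding. Printed here are the windows of the rising genes Epha8 and Sema5a and the falling genes Epha3 and Sema3d, the genes with the largest changes in each direction that have a window. Each is written 5′ to 3′ on the strand of the gene in lower case with TAAT or its complement ATTA in capitals, and lies at chr4:136956817-136957066 (minus strand) for Epha8, chr15:32244563-32244812 (plus strand) for Sema5a, chr16:63864176-63864425 (minus strand) for Epha3 and chr5:12382916-12383165 (plus strand) for Sema3d.
Epha8: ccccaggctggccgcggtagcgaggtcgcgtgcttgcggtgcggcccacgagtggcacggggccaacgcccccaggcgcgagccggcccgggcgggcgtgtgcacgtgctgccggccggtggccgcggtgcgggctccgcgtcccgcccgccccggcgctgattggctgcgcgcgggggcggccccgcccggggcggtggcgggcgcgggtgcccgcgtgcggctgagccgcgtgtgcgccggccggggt
Sema5a: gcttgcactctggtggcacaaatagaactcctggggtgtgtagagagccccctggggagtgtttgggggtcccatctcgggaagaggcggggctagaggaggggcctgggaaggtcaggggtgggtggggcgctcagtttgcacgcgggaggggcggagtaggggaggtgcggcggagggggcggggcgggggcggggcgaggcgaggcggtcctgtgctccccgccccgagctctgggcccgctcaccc
Epha3: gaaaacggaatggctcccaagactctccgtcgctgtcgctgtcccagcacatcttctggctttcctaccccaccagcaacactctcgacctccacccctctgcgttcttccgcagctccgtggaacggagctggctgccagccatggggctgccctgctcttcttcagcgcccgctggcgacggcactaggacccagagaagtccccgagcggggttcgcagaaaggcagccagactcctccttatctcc
Sema3d: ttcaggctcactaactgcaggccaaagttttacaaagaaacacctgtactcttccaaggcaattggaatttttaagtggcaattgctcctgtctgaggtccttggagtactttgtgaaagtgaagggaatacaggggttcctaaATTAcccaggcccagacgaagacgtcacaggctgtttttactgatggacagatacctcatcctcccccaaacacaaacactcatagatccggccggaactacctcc
The windows of Epha8, Sema5a and Epha3 hold no core, and that of Sema3d holds 1, at 106 bases before the start. The other windows with a core were 1 each of Robo1 and Sema3c, 2 of Robo2 and 1 of Plxna2, which holds 2 cores. The 2 of Robo2 (chr16:75092771-75093020 and chr16:75447294-75447543) belong to RefSeq starts outside the Robo2 position given below. The window at the start of that position holds 0 cores. The Robo1 window (chr16:72662899-72663148) lies inside the Robo1 position given below.

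Plexin-A receptors were the subfamily with the most rising genes. Of 4 plexin-A genes, 3 rose, and the fourth, Plxna1, had a log2 fold change of 0.42 (adjusted p = 0.102). These receptors carry the signal of secreted semaphorins bound to neuropilins and of class 6 semaphorins. Their summed level was 26.0, 28.1 and 32.3 CPM per kb in WT and 46.3, 40.1 and 48.8 CPM per kb in Dlx2OE, without overlap. Plxna4 (ENSMUSG00000029765, chr6:32144268-32588192, minus strand), which acts in sensory and sympathetic axons among other cells, was at 36.6, 31.1 and 45.7 CPM in WT and 99.2, 101 and 138 CPM in Dlx2OE. Every Dlx2OE sample lay more than 2-fold above the highest WT sample. Plxna4 rose 2.98-fold (log2 fold change 1.58, standard error 0.18, adjusted p = 0.00844). It also passed in all 6 fits that left out 1 sample, the only member to do so. The neuron marker Stmn2 was at 6.73, 56.0 and 23.9 CPM in WT and 73.3, 112 and 182 CPM in Dlx2OE, also above WT in every Dlx2OE sample (log2 fold change 2.08, standard error 0.66, adjusted p = 0.0885). Elavl4, the other defining neuron marker, overlapped, at 10.8, 46.8 and 35.1 CPM in WT and 11.2, 42.1 and 89.5 CPM in Dlx2OE (log2 fold change 0.62, standard error 0.71, adjusted p = 0.583). The summed neuron markers overlapped as well. The part of neuronal RNA in the rise of Plxna4 was not tested.

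Plxna2 (ENSMUSG00000026640, chr1:194618218-194816869, plus strand) was at 57.4, 49.5 and 68.7 CPM in WT and 112, 86.9 and 95.3 CPM in Dlx2OE, and Plxna3 (ENSMUSG00000031398, chrX:74329066-74344689, plus strand) at 52.1, 63.9 and 62.7 CPM in WT and 79.2, 85.3 and 98.0 CPM in Dlx2OE. Neither overlapped between the groups, although WT sample 3 of Plxna2 and Dlx2OE sample 2 were close. Plxna2 rose 1.67-fold (log2 fold change 0.74, standard error 0.15, adjusted p = 0.0315), and Plxna3 rose 1.47-fold (log2 fold change 0.55, standard error 0.12, adjusted p = 0.0402). Both lost the call with the length and GC correction, at log2 fold changes of 0.41 and 0.35. In the plexin-B genes, receptors of class 4 semaphorins, log2 fold changes were 0.30 in Plxnb1, 0.22 in Plxnb2 and -0.70 in Plxnb3, and edgeR passed 0 of 3 against 1 at an unadjusted p under 0.05 and 0 with DESeq2. The neuropilins Nrp1 and Nrp2, which bind secreted semaphorins and VEGF, had log2 fold changes of 0.14 (standard error 0.21) and 0.01 (standard error 0.14) and overlapped between the groups. Plxnd1, the receptor of Sema3e on vessels, was at 121, 96.1 and 143 CPM in WT and 99.2, 129 and 162 CPM in Dlx2OE, also with overlap.

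Semaphorins moved in both directions. Of 20 semaphorins, 3 rose and 2 fell. Both falling genes were among the 7 secreted class 3 semaphorins, and the rising ones were transmembrane members of classes 4 and 5. The difference between classes was not tested. Sema3d (ENSMUSG00000040254, chr5:12383385-12588948, plus strand) was at 165, 173 and 168 CPM in WT and 105, 78.1 and 72.2 CPM in Dlx2OE, with all Dlx2OE samples below the narrow WT range. Sema3d fell 1.98-fold (log2 fold change -0.99, standard error 0.15, adjusted p = 0.0145). Sema3c (ENSMUSG00000028780, chr5:17574281-17730268, plus strand), known from the cardiac neural crest, was at 39.5, 46.8 and 46.7 CPM in WT and 35.1, 28.6 and 29.5 CPM in Dlx2OE, so that Dlx2OE sample 1 came close to WT sample 1. Sema3c fell 1.43-fold (log2 fold change -0.51, standard error 0.12, adjusted p = 0.0495), at the edge of the threshold, and kept the call in 1 of the 6 fits that left out a sample. The other secreted semaphorins did not pass, among them Sema3a, which repels trigeminal axons, at 117, 114 and 129 CPM in WT and 192, 144 and 126 CPM in Dlx2OE (log2 fold change 0.36, standard error 0.16, adjusted p = 0.172), and Sema3f at 96.5, 114 and 132 CPM in WT and 158, 115 and 132 CPM in Dlx2OE (log2 fold change 0.24, standard error 0.15, adjusted p = 0.328).

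Sema5a (ENSMUSG00000022231, chr15:32244810-32696341, plus strand), a transmembrane semaphorin with thrombospondin repeats, was at 99.7, 102 and 160.5 CPM in WT and 389, 315 and 324 CPM in Dlx2OE. The lowest Dlx2OE value was nearly 2-fold above the highest WT value, that of WT sample 3. Sema5a rose 2.84-fold (log2 fold change 1.504, standard error 0.20, adjusted p = 0.0116). Its relative Sema5b had a log2 fold change of 0.18 (standard error 0.21). Sema4f (ENSMUSG00000000627, chr6:82911885-82939769, minus strand) was at 4.95, 6.74 and 7.70 CPM in WT and 16.7, 13.2 and 17.7 CPM in Dlx2OE and Sema4g (ENSMUSG00000025207, chr19:44989101-45003397, plus strand) at 35.8, 33.7 and 41.0 CPM in WT and 54.6, 56.3 and 58.9 CPM in Dlx2OE, both transmembrane. All Dlx2OE samples were above all WT samples in both genes. Sema4f rose 2.45-fold (log2 fold change 1.29, standard error 0.21, adjusted p = 0.0193), and Sema4g rose 1.54-fold (log2 fold change 0.62, standard error 0.10, adjusted p = 0.0207). The 4 class 6 semaphorins, ligands of plexin-A receptors, had log2 fold changes of 0.16 to 0.54, and edgeR passed 0 of them against 1 at an unadjusted p under 0.05 and 0 with DESeq2.

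**Figure D4:**
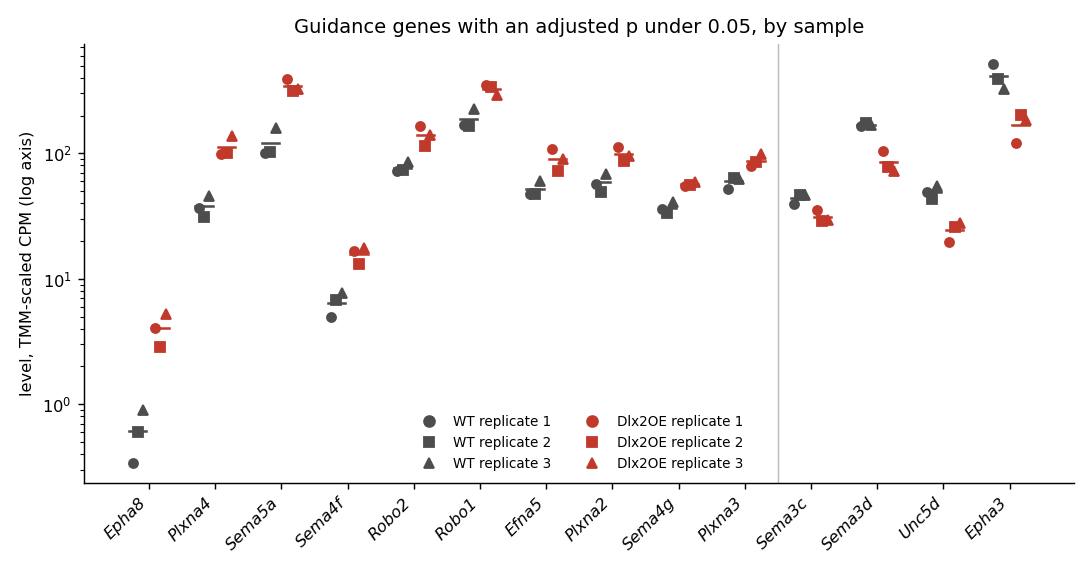
Levels of the 14 members with an adjusted p under 0.05 in each of the 6 samples, in TMM-scaled CPM on a log axis, with the group mean as a line and the 10 rising genes left of the divider. In none of the 14, which were chosen by the test on these same values, do the WT and Dlx2OE samples overlap. The same holds for 34.1% of all genes tested. Epha8 lies lowest, at 0.342 to 5.28 CPM.

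Eph receptors held both the largest rise and the largest fall among the genes that passed. Epha3 (ENSMUSG00000052504, chr16:63543534-63864175, minus strand), a receptor of ephrin-A ligands in mesenchymal and neural tissue, was at 515, 388 and 326 CPM in WT and 122, 202 and 185 CPM in Dlx2OE. All Dlx2OE samples lay below all WT samples, but the WT samples were spread over a wide range. Epha3 fell 2.42-fold (log2 fold change -1.27, standard error 0.23, adjusted p = 0.0250), and it kept the call in 2 of the 6 fits that left out a sample. Epha3 was the most abundant Epha gene per kb of exon in WT. The summed level of the 9 Epha genes was 127, 96.9 and 95.2 CPM per kb in WT. In Dlx2OE it was 71.2, 76.3 and 72.1 CPM per kb, without overlap. That sum includes Epha3, with means of 47.1 CPM per kb in WT and 19.5 CPM per kb in Dlx2OE. The sum without Epha3 was not compared, so this is no separate result on the other Epha genes. Epha4 and Epha7, the other abundant Epha genes, were at 328, 226 and 242 CPM in WT and 283, 263 and 240.4 CPM in Dlx2OE and at 205, 149 and 194 CPM in WT and 111, 137 and 129.7 CPM in Dlx2OE. Epha4 overlapped between the groups (log2 fold change -0.02, standard error 0.16, adjusted p = 0.947), while Epha7 did not overlap but missed the threshold (log2 fold change -0.54, standard error 0.15, adjusted p = 0.0621). It passed as falling after the length and GC correction, at -0.68.

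Epha8 (ENSMUSG00000028661, chr4:136929419-136956816, minus strand), a receptor best known from the midbrain and its retinal input, was low in WT. Its read pairs numbered 10, 18 and 28 in WT against 119, 90 and 143 in Dlx2OE. That is 0.342, 0.597 and 0.898 CPM in WT and 4.02, 2.87 and 5.28 CPM in Dlx2OE, with the lowest Dlx2OE sample more than 3-fold above the highest WT sample. Epha8 rose 6.56-fold (log2 fold change 2.71, standard error 0.40, adjusted p = 0.0148). The gene lies 93.4 kb from Ephb2 on chromosome 4, whose log2 fold change was 0.24 (adjusted p = 0.262). Of 5 Ephb receptors, which bind ephrin-B ligands, edgeR passed 0, against 2 at an unadjusted p under 0.05 and 2 with DESeq2. Ephb1 was at 10.9, 20.4 and 24.8 CPM in WT and 13.5, 6.08 and 8.12 CPM in Dlx2OE (log2 fold change -1.02, standard error 0.37, adjusted p = 0.118), with WT sample 1 below Dlx2OE sample 1. Ephb6, a kinase-inactive member, was at 23.0, 27.2 and 29.9 CPM in WT and 53.6, 38.4 and 35.3 CPM in Dlx2OE and did not overlap, yet missed the threshold (log2 fold change 0.67, standard error 0.18, adjusted p = 0.0609).

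Among the 8 ephrins only Efna5 passed, and DESeq2 added Efna3 as falling. Efna5 (ENSMUSG00000048915, chr17:62604184-62881317, minus strand), a GPI-anchored ligand that forms topographic gradients in axon maps, was at 47.7, 47.7 and 59.9 CPM in WT and 108, 72.1 and 90.5 CPM in Dlx2OE, all Dlx2OE samples above all WT samples. Efna5 rose 1.74-fold (log2 fold change 0.80, standard error 0.16, adjusted p = 0.0340), and its log2 fold change stayed at 0.85 with the length and GC correction. The 3 ephrin-A genes Efna1, Efna3 and Efna4 lie within 1 stretch of chromosome 3, with gaps of 32.8 and 10.4 kb, and had log2 fold changes of -0.38, -0.79 and -0.18. Part of the exon sequence of Efna3 and Efna4 overlaps other genes (14.1% and 10.5%). The library kit does not mark strand, so that reads there cannot be assigned to a gene by strand. The counts of Efna3 and Efna4 are uncertain to that extent. Of the 3 ephrin-B genes edgeR passed 0, with 0 at an unadjusted p under 0.05 and 0 with DESeq2. Efnb1, Efnb2 and Efnb3 had log2 fold changes of -0.14, 0.24 and 0.16, with standard errors of 0.11, 0.13 and 0.10.

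Robo1 and Robo2, the Slit receptors of commissural and sensory axons, both rose. Robo1 (ENSMUSG00000022883, chr16:72308306-73046095, plus strand) was at 169, 165 and 225 CPM in WT and 349, 338 and 291 CPM in Dlx2OE, and Robo2 (ENSMUSG00000052516, chr16:73891839-74411825, minus strand) at 72.2, 73.3 and 85.0 CPM in WT and 165, 114 and 139 CPM in Dlx2OE. In both genes all Dlx2OE samples were above all WT samples. Robo1 rose 1.75-fold (log2 fold change 0.81, standard error 0.15, adjusted p = 0.0260), and Robo2 rose 1.81-fold (log2 fold change 0.86, standard error 0.15, adjusted p = 0.0210). The genes point towards each other on chromosome 16, 846 kb apart. Both lost the call with the length and GC correction, at log2 fold changes of 0.50 and 0.59. Robo4, a receptor of endothelial cells, was at 13.8, 9.52 and 13.8 CPM in WT and 9.55, 13.7 and 12.1 CPM in Dlx2OE, and the groups overlapped (log2 fold change -0.07, standard error 0.21, adjusted p = 0.840). Slit2, a secreted Robo ligand, was at 144, 112 and 170.4 CPM in WT and 108, 96.4 and 106 CPM in Dlx2OE, lower in every Dlx2OE sample without passing the test (log2 fold change -0.46, standard error 0.15, adjusted p = 0.10), but it passed after the length and GC correction, at -0.85. Slit3 was at 46.0, 45.4 and 71.1 CPM in WT and 73.0, 59.1 and 79.7 CPM in Dlx2OE, with overlap.

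Of the netrins and their receptors, 1 of 8 tested genes passed with edgeR, as falling. At an unadjusted p under 0.05, which 29.5% of all genes tested reached, there were 2 higher and 3 lower. DESeq2, which passed 2630 of its 17498 genes, passed 2 as higher (Dcc, Ntn4) and 2 as lower (Ntn1, Unc5d). Unc5d (ENSMUSG00000063626, chr8:28646717-29219636, minus strand), a repulsive netrin receptor that also binds Flrt proteins, was at 49.3, 43.3 and 54.7 CPM in WT and 19.8, 25.8 and 27.7 CPM in Dlx2OE. WT samples lay within 43.3 to 54.7 CPM and Dlx2OE samples within 19.8 to 27.7 CPM, apart from each other. Unc5d fell 2.01-fold (log2 fold change -1.01, standard error 0.15, adjusted p = 0.0154). It was the only one of the 4 Unc5 genes to pass. Unc5b was at 31.3, 39.5 and 47.1 CPM in WT and 62.0, 40.6 and 38.2 CPM in Dlx2OE (log2 fold change 0.26, standard error 0.22, adjusted p = 0.448) and Unc5c at 55.8, 45.2 and 53.0 CPM in WT and 50.2, 56.3 and 65.4 CPM in Dlx2OE (log2 fold change 0.16, standard error 0.13, adjusted p = 0.433), both with overlap, and Unc5a, under 4 CPM throughout, had a log2 fold change of -0.81 (adjusted p = 0.112). Ntn1, the secreted ligand of Dcc and Unc5 receptors, was at 68.3, 83.2 and 94.2 CPM in WT and 55.1, 48.4 and 70.6 CPM in Dlx2OE. The groups overlapped and the gene did not pass (log2 fold change -0.50, standard error 0.17, adjusted p = 0.103), but it did as falling after the length and GC correction, at -0.68. Ntn4, a netrin of basement membranes, was at 3.04, 4.18 and 5.93 CPM in WT and 13.0, 5.25 and 8.23 CPM in Dlx2OE, highest in Dlx2OE sample 1 and with overlap (log2 fold change 1.01, standard error 0.37, adjusted p = 0.124). Neo1 had a log2 fold change of 0.16 (standard error 0.13). Of the repulsive guidance molecules, ligands of Neo1, edgeR passed 0 of 2, against 0 at an unadjusted p under 0.05 and 0 with DESeq2, with log2 fold changes of -0.23 in Rgma and -0.01 in Rgmb.

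Of the 5 largest fold changes that missed the threshold, 4 were in genes under 10 CPM in every sample (Robo3, Epha10, Slit1 and Dcc), beside that of Ephb1 given above. Robo3, which commissural axons need to cross the midline, was at 0.273, 0.796 and 0.417 CPM in WT and 0.270, 0.223 and 4.84 CPM in Dlx2OE. Only Dlx2OE sample 3 was high, and the difference (log2 fold change 1.82, standard error 1.12, adjusted p = 0.306) turned to a log2 fold change of -0.998 without it. Epha10 was at 0.888, 1.03 and 0.674 CPM in WT and 0.169, 2.87 and 5.58 CPM in Dlx2OE and Slit1 at 0.888, 2.02 and 1.99 CPM in WT and 1.92, 3.06 and 9.82 CPM in Dlx2OE. In both, Dlx2OE sample 3 was the highest and Dlx2OE sample 1 lay below at least 1 WT sample, with log2 fold changes of 1.73 (adjusted p = 0.232) and 1.59 (adjusted p = 0.137). Epha6 showed the same order of the Dlx2OE samples, at 0.547, 0.564 and 0.609 CPM in WT and 0.574, 0.637 and 2.29 CPM in Dlx2OE. The summed neuron markers followed the same order across the Dlx2OE samples, with 1434 CPM in sample 3. That order was not particular to neurons. In Dlx2OE samples 1 to 3 the summed glial markers were at 99.3, 212 and 345 CPM and the muscle markers at 68.4, 129 and 193 CPM. Cartilage markers were at 256, 452 and 625 CPM and macrophage markers at 40.1, 51.5 and 53.4 CPM. The mesenchyme, endothelial, epithelial, erythroid and neural tube sums did not follow it. Dcc, the attractive netrin receptor, differed from Robo3, Epha10, Slit1 and Epha6, at 2.02, 3.48 and 4.59 CPM in WT and 9.75, 5.00 and 6.87 CPM in Dlx2OE. Dlx2OE sample 1 was the highest for Dcc and the groups did not overlap (log2 fold change 1.10, standard error 0.36, adjusted p = 0.0948). The part of RNA from neurons or other cell types in these values was not tested.

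**Figure D5:**
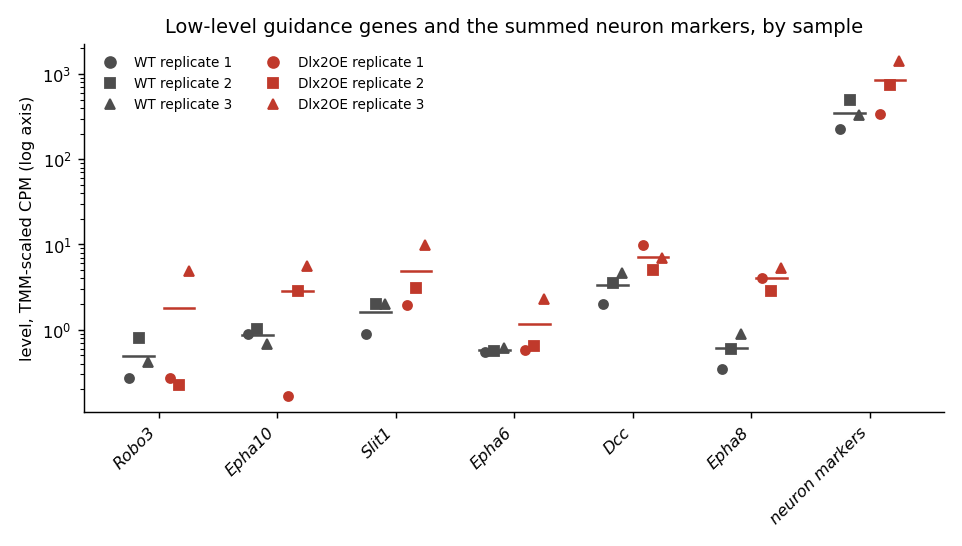
6 low-level guidance genes and the summed level of 12 neuron markers in each sample, in TMM-scaled CPM on a log axis, with the group mean as a line. Dlx2OE sample 3 is highest for Robo3, Epha10, Slit1, Epha6, Epha8 and the neuron markers, while Dlx2OE sample 1 is highest for Dcc. Of the Dlx2OE samples, sample 3 is also highest in the summed glial, muscle, cartilage and macrophage markers, which are not drawn.

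How firmly each call stands differed between the genes. When each sample was left out in turn, Plxna4 passed in 6 of the 6 fits, Sema5a and Epha8 in 5, Robo1, Robo2, Efna5, Sema4f, Sema3d and Unc5d in 3, Plxna2, Plxna3, Sema4g and Epha3 in 2, and Sema3c in 1. The direction of all 14 was the same in each of these fits. The loss was greatest without WT sample 2, which left Plxna4 alone, and without WT sample 1, which left Plxna4, Sema5a and Epha8. In those fits the number of passing genes in the whole table also dropped, to 79 at the lowest (without WT sample 2). Without WT sample 3, Dlx2OE sample 1 and Dlx2OE sample 2 in turn, 14, 19 and 7 members passed. The 7 include Ntn5, which was too low to be tested with all samples. The number of passing genes in the whole table also varied between the 6 fits, over the range given in the closing section. Member counts alone therefore do not compare these fits. Without Dlx2OE sample 3, the library with the most reads outside genes and the most neuron marker reads, 6 members passed: Epha8, Plxna4, Robo1 and Sema5a as rising and Sema3d and Unc5d as falling.

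A list of other genes of guidance signalling was counted in the same fit. Of 67 co-receptors, extracellular partners and intracellular effectors tested, 6 rose and 1 fell, beside 2.99% and 3.46% of all genes. Of the 67, 48 had a log2 fold change above 0, and their median was 0.20, beside 0.003 over all genes and 0.17 over the longest ones. With the length and GC correction 5 of the 67 passed. Ntng2, a GPI-anchored relative of the netrins, was at 0.957, 0.830 and 1.06 CPM in WT and 6.78, 2.99 and 7.38 CPM in Dlx2OE, above WT in every Dlx2OE sample (log2 fold change 2.59, standard error 0.38, adjusted p = 0.0136), although 14.0% of its exon sequence overlaps another gene. Draxin, a secreted repellent that binds netrin and Dcc, was at 3.59, 5.61 and 5.87 CPM in WT and 12.05, 12.3 and 27.5 CPM in Dlx2OE, highest in Dlx2OE sample 3 but without overlap (log2 fold change 1.78, standard error 0.37, adjusted p = 0.0340). Dpysl2, a cytosolic mediator of semaphorin signals that binds tubulin, was at 62.2, 61.1 and 63.9 CPM in WT and 88.8, 88.0 and 109 CPM in Dlx2OE (log2 fold change 0.61, standard error 0.11, adjusted p = 0.0242). Abl2, a tyrosine kinase downstream of Robo, rose 1.54-fold (adjusted p = 0.0314). The plexin-A effectors Farp2 and Mical1 had log2 fold changes of 1.13 (adjusted p = 0.0377) and 0.44 (adjusted p = 0.0474), with 19.4% and 15.0% of exon sequence overlapping other genes. The falling gene was the cell adhesion molecule Cntn4, at 20.7, 30.1 and 18.6 CPM in WT and 12.9, 7.58 and 11.9 CPM in Dlx2OE (log2 fold change -1.10, standard error 0.25, adjusted p = 0.0434). When 1 sample was left out, the number of these genes that passed ranged from 0 (without WT sample 1 or WT sample 2) to 13 (without WT sample 3), against 7 with all samples.

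Some members are neighbours on a chromosome. Sema3d, Sema3a and Sema3e follow each other on chromosome 5 with gaps of 536 and 423 kb, and their log2 fold changes were -0.99, 0.36 and -0.33, of which the first alone passed. Robo4 and Robo3 lie 553 bp apart on chromosome 9 with log2 fold changes of -0.07 and 1.82, the latter resting on 1 library.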

How the data were processed

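RNA from E12.5 maxillary prominences of 3 WT and 3 Dlx2OE samples was sequenced as poly(A)-selected, paired-end libraries from a kit that does not mark strand. Reads were mapped to mm10 and counted per gene, and the raw counts were deposited by the authors without normalization. The submitters' processing notes name FastQC, STAR 2.7.3a and HTSeq 0.12.4, and the annotation release and the strand setting of the counting are not given in the sources used here. Lines that name no gene, 16.8 to 25.3% of read pairs per library, stayed out of library sizes and tests. Symbols, positions, exon lengths and GC content came from GENCODE M21 on GRCm38, where 53706 of the 53801 identifiers were found, and start-site windows from RefSeq GRCm38.p6.

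Genotypes were compared by the quasi-likelihood F test of edgeR 4.0.16 (R 4.3.3, limma 3.58.1), with no other term, TMM factors and filterByExpr at a minimum count of 10. P-values were adjusted by Benjamini-Hochberg over the 17514 genes kept. A gene rose or fell at an adjusted p under 0.05, and was called up or down with an absolute log2 fold change over 1 in addition. The pipeline was tested on simulated data. Exact permutation tests of 3 against 3 samples cannot go below p = 0.1 and were not used. Replicates of a group correlated at r = 0.964 to 0.987 over genes, and no pair of libraries agreed within counting noise. The length and GC correction was a loess fit (span 0.5) entered as offsets. Other settings tried were DESeq2 1.42.0 (Wald test), RLE factors, library size alone, no filter, 10 counts in every sample, a replicate block, the correction, both together, and each sample left out. Plots used matplotlib 3.10.9 (Python 3.11.15).

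Named genes were Dlx2, all members at an adjusted p under 0.05, the member with the highest WT level per length in each family, the 5 largest changes among those that did not pass, members too low to test, passing genes of the accessory list and defining markers. Other members were named after their values were seen, to complete a family. The members and all lists were chosen with earlier results of these data known.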

Additional observations from a re-analysis of the deposited data

Results flagged for a closer look

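The share of read pairs that fell on no annotated gene, which no comparison of guidance genes used, was 5.75, 7.81 and 14.7% in Dlx2OE samples 1 to 3, above the highest WT share of 5.43% in each. Its part in the levels of the guidance genes was not tested.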

How the results depend on the processing

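The direction of the 14 passing members held under every alternative. With all samples, 10 members rose and 4 fell (4 called up and 2 called down past a fold of 2), 1130 genes passed in all, and 7 accessory genes passed. Leaving out 1 sample at a time gave 1 to 13 rising and 0 to 6 falling members, 1 to 6 called up and 0 to 3 called down, 79 to 2091 genes in all and 0 to 13 accessory genes. The length and GC correction left 5 rising members. DESeq2 gave 15 rising members (adding Dcc, Ephb6, Ntn4, Plxna1 and Slit1) and 9 falling ones, 7 called up, 2630 genes and 15 accessory genes. Without a filter 7 members fell, 4 were called down and 2044 genes passed, and library size alone or 10 counts in every sample left 1 called down. Deviations from the group means correlated at r = -0.07, -0.21 and 0.07 between same-numbered samples, against -0.20 to 0.34 between differently numbered ones. With 3 samples per group, these values cannot show whether the numbers mark pairs. The replicate block gave 10 rising and 3 falling members, losing Sema3c, which is also lost with RLE factors and with library size alone. The block with the length and GC correction gave 5 rising members, 577 genes and 3 accessory genes. The correction turned the sign of 11 of the 70 members, each at most 0.24 from 0 without it: Efna4, Ephb2, Neo1 (-0.000377), Nrp1, Nrp2 (-0.25), Plxnb2 (-0.00321), Plxnc1, Plxnd1 (-0.17), Sema3g, Sema5b and Unc5c (-0.17). With the block added, 10 turned (Plxnb2 to -0.00845). Leaving out 1 sample turned 12 members in at least 1 fit, among them Epha4, Nrp2, Plxnd1, Rgmb, Robo4, Unc5b and Robo3, which ran from -0.998 (without Dlx2OE replicate 3) to 2.35. The cause was not tested. The median log2 fold change of the members was 0.23 with library size alone, where that of all genes was 0.07, and 0.09 to 0.25 with 1 sample left out. Depth limits the values of genes with few reads, such as Robo3 and Ntn5.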
